A study of Homo sapiens with 3 samples.

Results

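The 145 genes described here were at least 2-fold away from the original monolayer of a human melanoma line in the same direction in both of the cultures that followed it, the melanoma bodies and the new monolayer grown back from them. Of these, 65 genes gave a higher signal in both than in the original monolayer and 80 gave a lower signal. They were taken from 12482 genes with a RefSeq mRNA accession and a probe well above background on all 3 arrays. A gene was placed when 1 such probe gave ratios of 2 or more, or of 0.5 or less, to the original monolayer in both cultures, so the genes were chosen by these ratios, and their size is a description and not a result.

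The line, 1205Lu, was derived from a lung metastasis that the human melanoma line WM793 formed in a mouse. The original monolayer (OM) was cultured for 14 days in RPMI-1640 with 10% FCS. The melanoma bodies (MB), adherent 3-dimensional cell masses, were grown for 14 days in hESC medium, DMEM F-12 with 20% KO serum replacement. The new monolayer (NM) came from cells kept as bodies for 14 days in that medium and then for 10 days in RPMI-1640 with 10% FCS, and bodies still present were taken out before RNA was prepared. OM and NM thus shared their medium at harvest, while MB differed from both in medium and in growth form. Each population was 1 culture on 1 array, so no test across samples was possible and no p-value is given. Medium, growth form, time in culture and the chance state of a single culture cannot be told apart, and in bulk RNA fewer cells of a type and less RNA per cell cannot be told apart either. Both ratios of every gene share the single OM array, so that a low or high OM reading of a probe moves both the same way.

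Melanoma cells arise from melanocytes, which descend from the neural crest, and cells of melanoma lines can move between more differentiated, neural crest-like and more mesenchymal patterns of expression as their surroundings change. Cells that grow as adherent masses meet more neighbours and more of their own secreted matrix than cells on plastic, and matrix proteins, growth factors and their extracellular inhibitors are among the products that such growth is known to alter. The genes below therefore are ordered by what their products do, with secreted and matrix products first, then receptors and signals, enzymes of lipid mediators, neural products and transcription factors, and last the genes with a lower signal. This order by role was set after the values were seen.

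The probe sequences bear on how many separate genes the 80 lower ones stand for, and are shown here because 6 of the 9 histone genes among them were placed by probes that hold a run of bases in common. The 6 were genes of H2B, a core histone that packages DNA, and their probes, 60 bases long on the array, all held the same run of 11 bases, which lies in the part of the H2B coding sequence near its end that H2B genes share closely. The following stretches of 30 bases from these probes are written 5′ to 3′ with the shared run in capitals.
HIST1H2BB: taaggcagttACCAAGTACACtagctctaa
HIST1H2BE: ccaaggccgttACCAAGTACACcagctcca
HIST1H2BF: ccaaggccgtcACCAAGTACACcagctcta
HIST1H2BH: taaggccgtcACCAAGTACACcagctccaa
HIST1H2BL: caaggccgtcACCAAGTACACcagctccaa
HIST1H2BO: aaaggccgtcACCAAGTACACcagctccaa

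The probes of HIST1H4J and HIST1H4K, a pair of lower genes for the core histone H4, shared an unbroken run of 37 bases. Its first 30 bases, identical in both probes and therefore all in capitals, are these.
HIST1H4J and HIST1H4K: TCTACGGTTTCGGTGGTTGAGCGTCCCTTT

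In the coordinates of the deposited files, which use the hg17 build, the H2B probes lay at chr6:26151485-26151544, chr6:26292319-26292378, chr6:26308082-26308141, chr6:26360201-26360260, chr6:27883265-27883324 and chr6:27969567-27969626, in the order of the genes above, and the H4 probes at chr6:27900155-27900214 and chr6:27906933-27906992. Among the other probes that placed the 145 genes, a single pair from different genes shared a run of 20 bases or more, SAA1 and SAA2, with 23 bases. Signal of near-identical copies cannot be told apart on such probes, and the values of the histone genes and of the SAA genes are uncertain as to which copy gave them.

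Signals are given here as scaled signals in arbitrary units (a.u.), the deposited spot signal after Feature Extraction divided by the array's 75th percentile over all probes and multiplied by that of OM. The multipliers were 0.897 for MB and 1.08 for NM. Between 26515 and 29124 of 41000 probes per array were well above background, and between 77 and 81 outlying spots of 43376 were left out. Among 213 probes printed in 10 spots, the median SD of a log2 ratio between single spots was 0.07 for MB to OM and 0.07 for NM to OM. It was 0.17 and 0.19 for the 16 such probes with an array under 100 a.u., and this spread covers the spots of 1 array and not cultures. Markers of melanoma and its lineage fitted the labelled line in part: SOX10, S100B, MIA and VIM each read 5287 a.u. or more on every array, whereas the pigment enzymes TYR and TYRP1 were not well above background on any array.

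Taken by itself, each ratio passed in 1 direction for 568 genes at least 2-fold higher in MB than in OM, or 4.55% of the 12482, and for 726 genes at least 2-fold lower, or 5.82%. The corresponding numbers for NM against OM were 490 genes (3.93%) and 498 genes (3.99%). Genes past 2-fold on the same probe in both made up 0.521% of the measured genes for the higher direction and 0.641% for the lower, which the rule itself fixes. The 65 higher genes were 11.4% of those 2-fold higher in MB and 13.3% of those 2-fold higher in NM. The 80 lower genes were 11% of those 2-fold lower in MB and 16.1% of those 2-fold lower in NM. No gene had 1 probe in each direction.

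**Figure D1:**
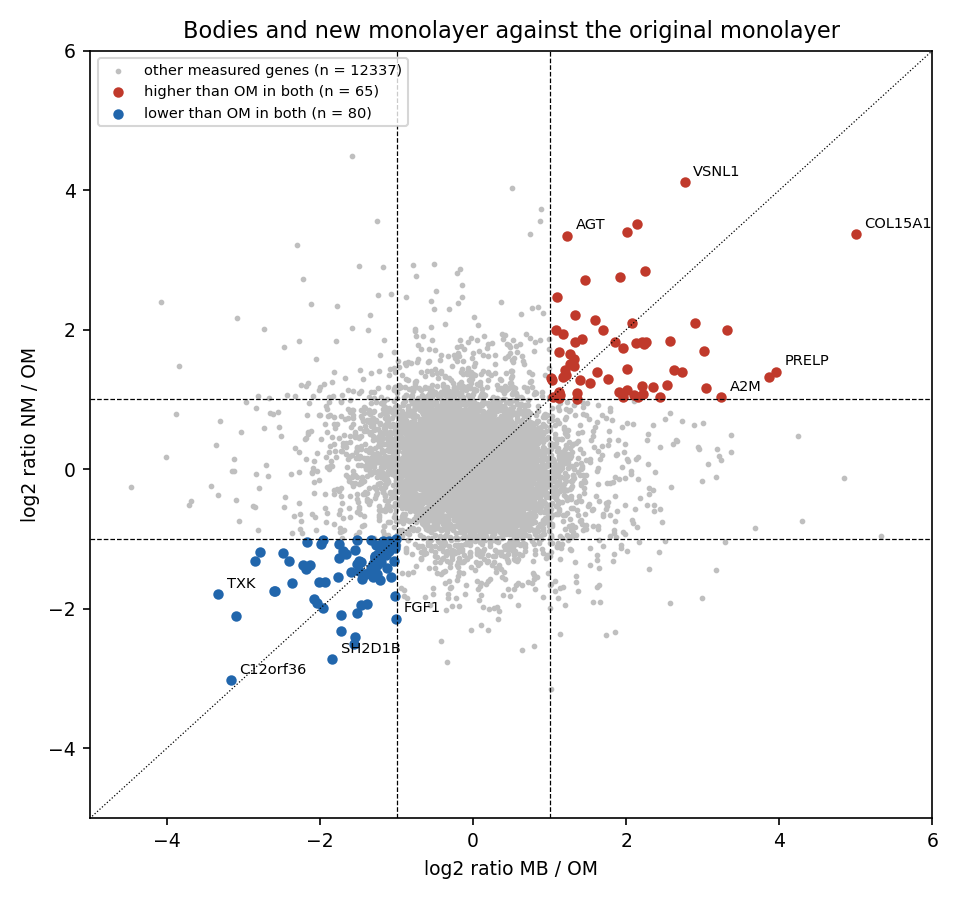
Each point is a gene, with its log2 ratio of MB to OM on the horizontal axis and of NM to OM on the vertical axis; grey points are other measured genes at their brightest probe, red and blue points the 65 higher and 80 lower genes at the probe that placed them, dashed lines mark 2-fold and the dotted line equal ratios. Among the red points COL15A1 lies farthest to the right at 5.00 and VSNL1 highest at 4.11, and among the blue points C12orf36 lies lowest at -3.02, while some grey points lie beyond these.

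At the probe that placed them, the members were dimmer than all measured genes at their brightest probe. The placing probe need not be a gene's brightest. The rule also needs OM at least 2-fold away from both later cultures, which makes a low reading on some array more likely. In 24 of 65 higher genes (36.9%) and 38 of 80 lower genes (47.5%) at least 1 array read under 100 a.u. before scaling, against 11.4% of all measured genes. The median OM signal was 152 a.u. for the higher genes, 451 a.u. for the lower genes and 1920.2 a.u. for all measured genes. A 2-fold ratio, 1 on the log2 scale, was larger than the spot SD even of dim probes, whereas the spread between cultures was not measured. Base composition of the probes differed little, with a median G and C content of 43.3% for the 73 probes of higher genes and 45.0% for the 90 probes of lower genes, against 43.3% for 18029 measured probes.

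Higher genes for secreted and matrix products were led by COL15A1, a collagen of basement membrane zones, probed at chr9:98912320-98912379. Its scaled signal was 48.5 in OM, 1551 in MB and 500.3 in NM. Both later cultures were far above OM, by 32.0-fold in MB and 10.3-fold in NM, and MB was the higher of the pair. A second COL15A1 probe read 30.4 a.u. in OM, 631 a.u. in MB and 335 a.u. in NM, so the order was the same on both. LEPREL1, a hydroxylase that modifies collagen chains, read 14187 in OM, 140883 in MB and 56591 in NM. COL5A1, a fibril-forming collagen, had nearly level signals in the later cultures, 1118 in OM, 2312 in MB and 2297 in NM. Its second probe fell short of 2-fold in both, at 1.84-fold in MB and 1.69-fold in NM, and the gene stayed past 2-fold in 3 of 6 other scalings. The small leucine-rich proteoglycan BGN read 75.1 in OM, 329 in MB and 264 in NM, again with OM lowest and the other two close to each other. PRELP, a proteoglycan that anchors basement membrane to connective tissue, behaved differently, at 80.8 in OM, 1259 in MB and 213 in NM, since NM was nearer to OM than to MB.

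Of the collagens, 2 of 24 measured genes were members, both higher, and of matrix glycoproteins, proteoglycans and crosslinkers 2 of 45 were higher and 1 lower. Of all measured genes 0.521% were higher and 0.641% lower, and the counts given for the lists that follow stand beside these shares too. The median log2 ratios of the collagen list were 0.52 in MB and -0.13 in NM, so the list median was above 0 in MB and below 0 in NM. Over all measured genes these medians were -0.05 and 0.04. The summed signal of the fibroblast markers was above OM in both later cultures, at 17009 a.u. in OM, 23148 a.u. in MB and 24202.0 a.u. in NM, and its part in the signals of matrix genes was not tested. Of the 12 fibroblast markers, COL1A1, COL1A2, COL3A1, LUM, PDPN and POSTN were not well above background on any of the arrays.

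Secreted inhibitors and carriers formed a further group. A2M, a broad protease inhibitor of plasma, read 37010.0 in OM, 351119 in MB and 75699 in NM, and its 9.49-fold excess in MB had shrunk to 2.05-fold in NM. It stayed past 2-fold in 2 of 6 other scalings. ITIH5, an inter-alpha-trypsin inhibitor heavy chain that binds hyaluronan, read 46108 in OM, 94484 in MB and 112320.0 in NM on the probe that placed it. NM was under MB on all 4 of its further probes, which were above OM in both cultures but reached 2-fold in both on 1 probe alone. SOD3, the extracellular superoxide dismutase, read 20195 in OM, 81701 in MB and 54669 in NM. The lipid carrier APOD read 1405 in OM, 6518 in MB and 3209 in NM, and the secreted chaperone CLU read 33.5 in OM, 249.7 in MB and 144 in NM. In each of SOD3, APOD and CLU the signal in NM lay between those of OM and MB. CHI3L2, a chitinase-like lectin without enzyme activity, stayed level instead, at 746 in OM, 2695 in MB and 2644 in NM. SCRG1, a small secreted protein of cartilage and brain, read 2910.2 in OM, 17392 in MB and 10392 in NM.

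**Figure D2:**
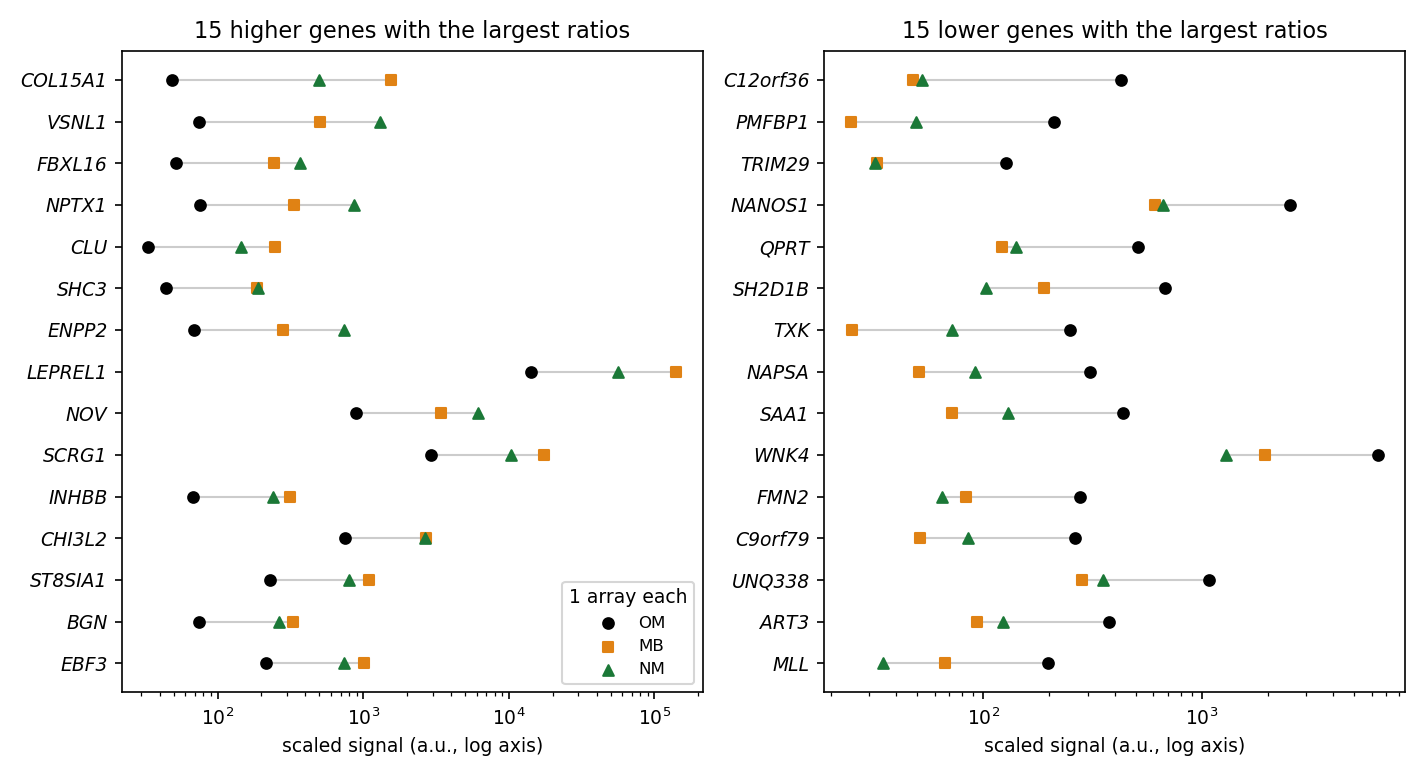
Scaled signal in a.u. on a log axis for the 15 higher genes (left) and 15 lower genes (right) whose smaller ratio to OM was largest, with 1 array each for OM (circle), MB (square) and NM (triangle). In the left panel OM is the lowest point of every gene and in the right panel the highest, while NM lies on either side of MB.

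Among growth factors, IGF2, the insulin-like growth factor of fetal growth, was bright and high in both later cultures, at 18293 in OM, 71409 in MB and 60969.6 in NM. A second IGF2 probe was dim, at 36.8 a.u. in OM, 101 a.u. in MB and 98.1 a.u. in NM, and gave the same direction. IGF2AS, transcribed from the opposite strand of the same locus, read 294 in OM, 887 in MB and 1294 in NM. Both lie on chromosome 11 with probes within 100 kb, and IGF2 was the one member among 25 measured genes of insulin and IGF signalling. INHBB, the beta subunit of activin B, was the one higher gene among 42 of TGF-beta, activin and BMP signalling, with 68.0 in OM, 315 in MB and 241 in NM. NOV, a matrix-associated signalling protein of the CCN family, was at 899.8 in OM, 3399 in MB and 6097 in NM, with NM above MB, and its second probe read 181 a.u., 704 a.u. and 1044 a.u. in the same order of arrays.

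Receptors and their intracellular partners were fewer. NGFR, the low-affinity neurotrophin receptor and a neural crest marker, read 123 in OM, 310.5 in MB and 568 in NM, and NM was the highest of the 3. SHC3, an adaptor of receptor tyrosine kinases in neurons, was level between the later cultures, at 44.1 in OM, 186 in MB and 189 in NM. NR3C2, the mineralocorticoid receptor, was dim, with 40.2 in OM, 101 in MB and 119.8 in NM. TLR5, which recognises flagellin, read 228 in OM, 526 in MB and 613 in NM. Inhibitors of pathways were present too. SPRY1, a feedback inhibitor of receptor tyrosine kinase signalling, read 54.7 in OM, 157 in MB and 128 in NM and was the one member among 33 measured MAPK feedback and immediate early genes. APCDD1, an inhibitor of Wnt signalling at the membrane, read 132 in OM, 515 in MB and 272 in NM and was the one member among 36 measured Wnt genes. No member was found among 32 receptor tyrosine kinases and EGF family ligands, 43 cytokines, chemokines and their receptors, or 19 Notch genes. At the shares over all measured genes, lists of this size are often empty.

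Of the 30 gene lists, that of prostaglandin, arachidonate and ectoenzyme genes had the largest share of higher members, 3 of 17 measured genes (17.6%), beside 0.521% of all measured genes. The lists were drawn up with earlier results of these data known, so the share is a description. PTGS2, the inducible cyclooxygenase that starts prostaglandin synthesis, was printed in 10 spots and read 52.9 ± 5.05 a.u. in OM (SD over 10 spots), 328 ± 10.0 a.u. in MB (8 spots used) and 141 ± 8.62 a.u. in NM (10 spots). PLA2G4A, the phospholipase that releases arachidonic acid for it, read 363 ± 15.5 a.u. in OM, 958 ± 62.6 a.u. in MB and 877 ± 28.8 a.u. in NM over 10 spots each. For PTGS2 all 3 arrays stood apart by more than their spot SDs, and for PLA2G4A OM stood apart from both later cultures. PTGS2 did not stay past 2-fold under both of the other background settings given at the end, whereas PLA2G4A did. ENPP2, or autotaxin, which makes lysophosphatidic acid, read 69.3 in OM, 280.0 in MB and 735 in NM, and NM exceeded MB. One gene of the same list was lower, the aminopeptidase ANPEP, at 182 in OM, 85.0 in MB and 89.4 in NM.

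Some higher genes are best known from neurons and glia. VSNL1, a neuronal calcium sensor, had the largest ratio of NM to OM, with 74.9 in OM, 509 in MB and 1295 in NM. NPTX1, a neuronal pentraxin of synapses, read 75.9 in OM, 335 in MB and 871 in NM. In both genes NM lay above MB by over 2-fold. ST8SIA1, the enzyme that makes ganglioside GD3, an abundant glycolipid of melanoma cells, read 228 in OM, 1096 in MB and 805 in NM. CNIH3, an auxiliary subunit of AMPA receptors, read 1538 in OM, 4726 in MB and 4054 in NM. ITPKA, a kinase of inositol trisphosphate in neurons, read 1698 in OM, 3849 in MB and 6504 in NM. CDH19, a cadherin of neural crest and Schwann cell precursors, was much higher in MB than in NM, at 29.7 in OM, 432 in MB and 73.9 in NM. The OM signal of CDH19 was near background. In the list of neural crest, glial and neural progenitor genes, CDH19 and NGFR were the members among 42 measured, both higher. Neither stayed past 2-fold under both of the other background settings given at the end. The list medians were 0.39 in MB and 0.03 in NM on the log2 scale. None of 17 measured genes of melanocyte differentiation and pigment was a member, which is common for so short a list at the shares over all measured genes.

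Transcription factors with a higher signal included EBF3, a helix-loop-helix factor of neural development, whose 3 probes all passed. The brightest read 214 in OM, 1006 in MB and 744 in NM, and the other two gave 2.27 and 1.65 in MB and 1.77 and 1.69 in NM as log2 ratios to OM. NR4A2, an orphan nuclear receptor of the immediate early type, read 151 in OM, 569 in MB and 326 in NM. PPARGC1A, a coactivator of mitochondrial genes, was near background in OM, with 31.0 in OM, 144 in MB and 65.3 in NM. NEUROG2, a proneural factor, read 207 in OM, 419 in MB and 513 in NM. MYCN, a proto-oncogene of the MYC family, passed on a dim probe with 36 in OM, 86.6 in MB and 102 in NM, but its other probe was flat, at 283 a.u., 238 a.u. and 288 a.u., so the gene's placing rests on 1 probe.

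Among the lower genes, the largest pair of ratios belonged to C12orf36, now annotated as the noncoding gene LINC01559 and probed at chr12:13415849-13415908, with 427 in OM, 47.6 in MB and 52.5 in NM. MB and NM were close to each other there, at 8.96-fold and 8.14-fold under OM. NANOS1, a translational repressor of germ cells, read 2521 in OM, 611 in MB and 663 in NM. QPRT, an enzyme that makes NAD precursors from quinolinate, read 513 in OM, 121 in MB and 141 in NM, and its second probe was also lower in both. TRIM29, a tripartite-motif protein of epithelia, was dim and level, at 127 in OM, 32.8 in MB and 32.1 in NM. WNK4, a kinase that sets ion transport in the kidney, read 6429.6 in OM, 1949 in MB and 1289 in NM, and NM was under MB on both of its probes. NAPSA, an aspartic protease of lung and kidney, read 308 in OM, 50.6 in MB and 92.0 in NM, and its second probe was hardly lower in NM, with a log2 ratio of -0.20.

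Several lower genes are best known from blood cells. TXK, a Tec family kinase of T cells, had the largest MB ratio of the lower genes, at 251 in OM, 25 in MB and 72.2 in NM. SH2D1B, an adaptor of natural killer cells, read 677 in OM, 189 in MB and 103 in NM, and NM was the lower of the later cultures. HLA-DRA, the alpha chain of the HLA-DR antigen presenting molecule, read 152 in OM, 45.2 in MB and 63.2 in NM, and was the one member among 59 measured genes of interferon response and antigen presentation. CD200, a membrane ligand that restrains myeloid cells, read 853 in OM, 298 in MB and 424 in NM. The summed signal of 14 blood cell markers was 6583 a.u. in OM, 3090.1 a.u. in MB and 7637 a.u. in NM, so it was not lower in NM. Of these, CD3D, HBB, PTPRC and SPI1 were not well above background on any array. The acute phase proteins SAA1 and SAA2, whose probes lie within 100 kb on chromosome 11, read 435 in OM, 72.2 in MB and 129.8 in NM for SAA1 and 247 in OM, 56.1 in MB and 94.9 in NM for SAA2, with the order of arrays the same on both of these related probes.

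Some lower genes are known for roles in matrix or contraction. On the list of cytoskeletal, contractile and mesenchymal genes 1 of 45 measured was a lower member, TPM1 (2.22%, beside 0.641% of all measured genes), and the list medians were -0.22 in MB and 0.0028 in NM on the log2 scale. CTGF, a CCN family protein and a classical target of YAP and TEAD, the factors through which cells read stiffness and spreading, was bright, at 27142 in OM, 5831 in MB and 10495 in NM. NM lay between OM and MB, 2.59-fold under OM. FER1L3, or myoferlin, the other member on the list of YAP and TEAD targets, read 483 in OM, 241 in MB and 241 in NM on a dim probe at the edge of the threshold. Its 2 bright probes read 31345 a.u. and 40044 a.u. in OM and were lower by less than 2-fold in both cultures, with log2 ratios from -0.45 to -0.99. The list as a whole had 2 lower members among 22 measured genes (9.09%, beside 0.641% of all measured genes) and medians of -0.22 in MB and -0.32 in NM. NOV, of the same CCN family as CTGF, was higher, as given above.

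For CTGF the sequence before its start is shown because it is the lower member whose control by TEAD is textbook knowledge. In the RefSeq promoter table (GRCh38.p14), the 100 bases from 180 to 81 before the start on the minus strand, chr6:131951453-131951552, hold the TEAD motif GGAATG, searched on both strands and written in capitals, at 3 places.
CTGF: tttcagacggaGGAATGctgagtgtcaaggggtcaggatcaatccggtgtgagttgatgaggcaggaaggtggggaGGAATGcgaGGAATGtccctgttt
At least 1 match stood in 14.0% of the 27305 promoters of 300 bases in that table, and a match is no measure of binding. The stretch illustrates 1 gene and says nothing of the lower genes as a set. A promoter was found for 109 of the 145 genes, 72.3% of the higher and 77.5% of the lower ones, which is under 80%, so a check of motifs or base composition over the members' promoters is void and gives no values here.

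TPM1, a tropomyosin of actin filaments, was measured by 6 probes. The probe that passed in both comparisons with the highest signal read 126917 in OM, 39097 in MB and 56222 in NM. A brighter probe read 173160.0 a.u. in OM, 58215 a.u. in MB and 92819 a.u. in NM and missed 2-fold in NM. Log2 ratios of NM to OM on the 6 ranged from -1.49 to -0.05, so the probes differed in how far NM lay from OM. The dimmest of the 6 read 461 a.u. in OM, 525 a.u. in MB and 371 a.u. in NM and was thus above OM in MB. NEXN, an actin-binding protein of muscle, read 1171 in OM, 296 in MB and 555 in NM and its second probe had NM as low as MB. EFEMP1, a fibulin of the matrix, read 350.2 in OM, 50.9 in MB and 154 in NM. TINAGL1, a matricellular protein, read 467 in OM, 87.8 in MB and 188 in NM. FBXO32, a muscle ubiquitin ligase subunit, read 16868 in OM, 3748 in MB and 8180.4 in NM. In NEXN, EFEMP1, TINAGL1 and FBXO32 NM lay between OM and MB at the probe named.

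Secreted signals with lower signals included a ligand with its receptor. NPPC, the precursor of C-type natriuretic peptide, read 1770.5 in OM, 741 in MB and 627 in NM. NPR3, the receptor that clears natriuretic peptides, read 574 in OM, 235 in MB and 239.7 in NM. In both, MB and NM were close to each other and OM stood above them. NMU, the neuropeptide neuromedin U, read 649 in OM, 222 in MB and 123 in NM. FGF1, a broad fibroblast growth factor, read 257 in OM, 127 in MB and 58.1 in NM, and FGF13, a member of that family that stays in the cell and binds sodium channels, read 9047 in OM, 4145 in MB and 3401 in NM. These were the 2 lower genes among 21 angiogenic and vascular factors measured, where NOV was the higher one.

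Enzymes and transporters were also among the lower genes. NPC2, which moves cholesterol out of lysosomes, read 122392 in OM, 42724 in MB and 47841 in NM. GCLM, the modifier subunit of the enzyme that limits glutathione synthesis, read 1646 in OM, 784 in MB and 779.5 in NM and was the one member among 31 genes of the NRF2 response and metallothioneins. SLC1A1, a neuronal glutamate transporter, read 3049 in OM, 1065 in MB and 729 in NM. KCNJ2, an inward rectifier potassium channel, read 143 in OM, 36.9 in MB and 70.7 in NM and was the one member on the list of 40 measured channels, transporters and pumps, which does not hold the SLC genes named here. Related genes stood on opposite sides in some families, a pattern noticed after the values were seen. CA12, the membrane-bound carbonic anhydrase and the one member among 40 hypoxia and glycolysis genes, was higher, with 4514 in OM, 9841 in MB and 14532 in NM, whereas the cytosolic CA2 was lower, with 126 in OM, 47.3 in MB and 44.3 in NM. The sodium-proton exchanger SLC9A9 of endosomes was higher, with 62.7 in OM, 133 in MB and 348 in NM, and SLC9A7 of the Golgi lower, with 1572 in OM, 776 in MB and 719 in NM. SLC9A7 stayed past 2-fold in 2 of 6 other scalings. CA2 and SLC9A9 did so in all 6, but not under both of the other background settings given at the end.

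The histone genes were noticed as a family after the values were seen. Of 59 measured histone genes 9 were lower members and none was a higher one, beside 0.641% and 0.521% of all measured genes. They were 6 of 16 H2B genes, 1 of 15 H2A genes and 2 of 11 H4 genes, and no member among 13 H3 and 4 H1 genes. HIST1H2BH read 5413 in OM, 1924 in MB and 1958 in NM, HIST1H2BO read 4061 in OM, 1438 in MB and 1577 in NM and HIST1H2BL read 5487 in OM, 2622 in MB and 2623 in NM. Over the 6, the ratios under OM ranged from 2.09-fold to 2.82-fold in MB and from 2.06-fold to 2.76-fold in NM, and MB and NM were level in each.

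The run shown above was found as what the probes of the 6 H2B members share. This run of 11 bases was held by 6 of the 24651 probes with a RefSeq mRNA accession, and these were the 6 that placed the H2B members. None of the 11 other measured H2B probes held it, and the longest run these shared with any member's probe was 8 bases. The ratios of those 11 spanned log2 values from -0.62 to 1.53 in MB and from -0.60 to 0.997 in NM, so none was 2-fold lower in either. HIST2H2BE, with 2 probes off the run, was lower on one by -0.43 and higher on the other by 1.01 in MB on the log2 scale. Which H2B copies gave the 6 values cannot be told from these probes. HIST1H4J and HIST1H4K, with their 37 shared bases, read 1237 in OM, 563 in MB and 528 in NM and 1328 in OM, 556 in MB and 509.6 in NM. HIST1H2AL, whose probe shared no run of 20 bases with another member's, was dim, at 87.2 in OM, 31.1 in MB and 35.1 in NM.

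**Figure D3:**
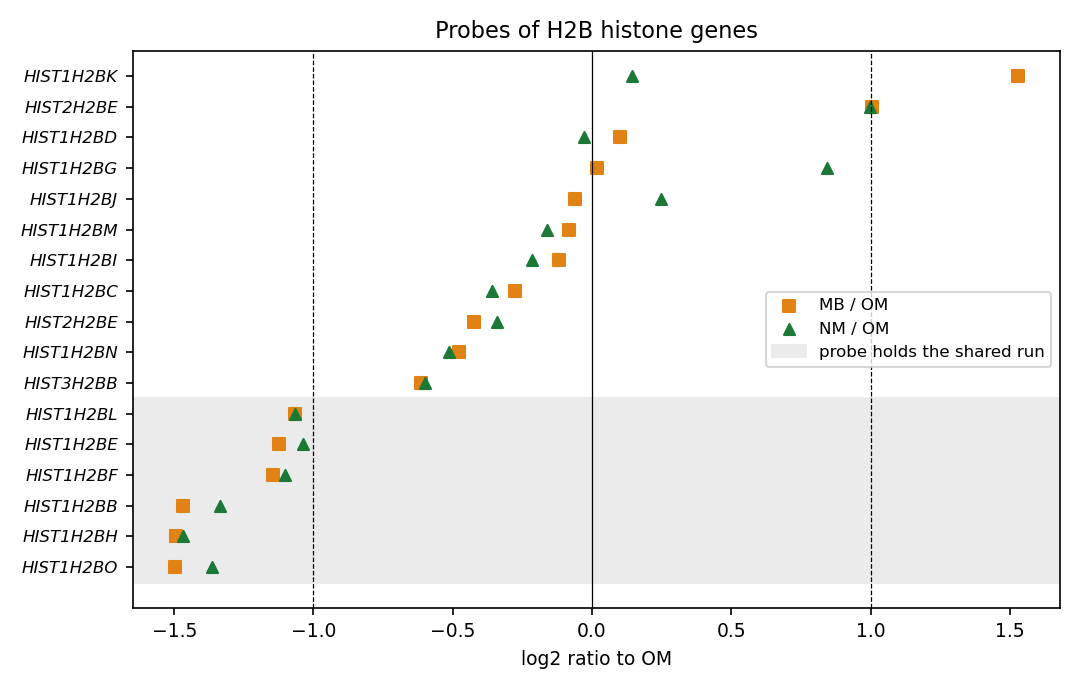
Log2 ratio to OM (horizontal axis) of MB (squares) and NM (triangles) for 17 measured probes of H2B histone genes with a RefSeq mRNA accession, 1 row a probe; the shaded rows are the 6 probes that hold the shared run of 11 bases, and dashed lines mark 2-fold. The shaded rows all lie left of -1, as the rule required of these members, and the 11 others do not. Since the run was found from the members' own probes, the shading restates how they were chosen.

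How far NM had returned was read as the log2 ratio of NM to OM divided by that of MB to OM, which is 1 where NM equals MB. NM lay between OM and MB, with a value under 0.75, in 24 of 65 higher genes (36.9%) and 21 of 80 lower genes (26.2%). It was level with MB, within 0.25 of 1, in 24 higher genes (36.9%) and 46 lower genes (57.5%), and beyond MB in 17 (26.2%) and 13 (16.2%). The median log2 ratio of NM to MB was -0.13 for higher genes, from -2.56 to 2.12, and 0.04 for lower genes, from -1.13 to 1.60. Over all measured genes it was 0.09. Since each gene had to pass 2-fold in NM, genes that had gone back further could not be members, and these shares describe the chosen genes.

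NM lay farthest beyond MB in AGT, SLC9A9, FGF1, FAM3B and ATP8B3, with values of the measure from 1.84 to 2.72. AGT, the precursor of angiotensin, was printed in 10 spots and read 50.4 ± 9.90 a.u. in OM (SD over 10 spots), 118 ± 8.0 a.u. in MB (9 spots used) and 514 ± 22.9 a.u. in NM (10 spots). Its NM signal was 10.2-fold that of OM and 4.34-fold that of MB. FAM3B, a secreted cytokine-like protein, read 107 in OM, 297 in MB and 703 in NM. ATP8B3, a lipid flippase of the sperm acrosome, read 124 in OM, 263 in MB and 494 in NM, but its other probe, with another accession type, was lower than OM in both, by -0.42 and -0.15 on the log2 scale. NM came closest to OM relative to MB in A2M, CDH19, PRELP, ITIH5L and RAB11FIP4, with values from 0.318 to 0.424. ITIH5L, a relative of ITIH5, read 77.3 in OM, 637 in MB and 173 in NM. RAB11FIP4, an effector of Rab11 in recycling endosomes, read 142 in OM, 768 in MB and 290.0 in NM.

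**Figure D4:**
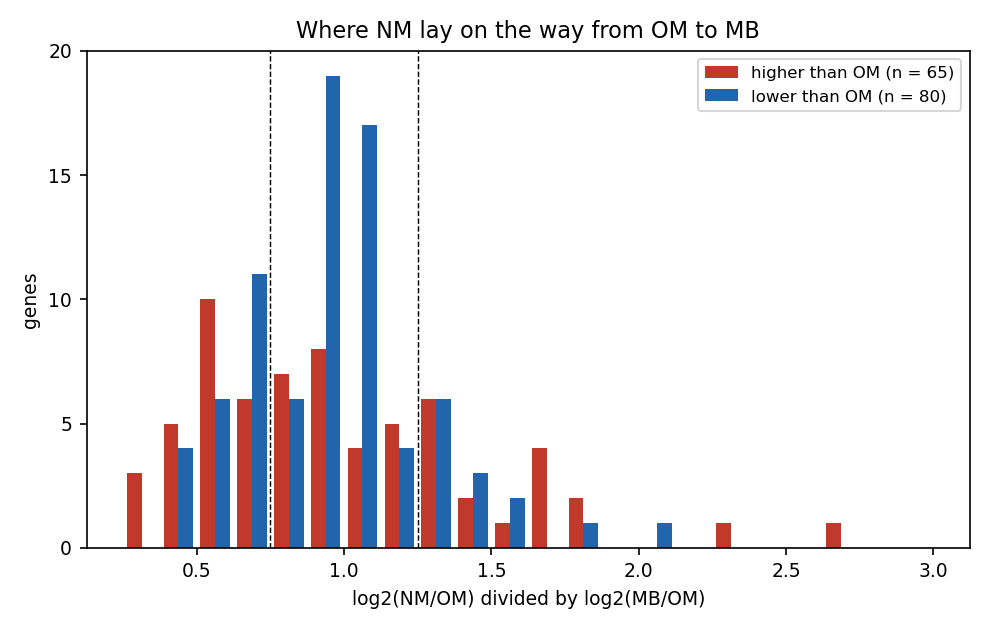
Number of genes (vertical axis) by the log2 ratio of NM to OM divided by the log2 ratio of MB to OM (horizontal axis), for the 65 higher genes in red and the 80 lower genes in blue; the dashed lines, 0.25 to either side of 1, bound the genes with NM level with MB. The lower genes pile up between the lines with 46 of 80, while the higher genes are spread from 0.318 to 2.72.

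NM was grown from bodies, and those left were removed before its RNA was prepared. At their brightest probe 10 genes were at least 10-fold higher in MB than in OM. MGP read 132 a.u. in OM, 5299 a.u. in MB and 68.1 a.u. in NM, which is 1.28% of MB. GFRA2, S100A4 and SOX2 were at 3.04%, 3.19% and 4.34% of MB in NM, each under its OM signal. ID4, SMCR8 and DHRS10 were at 7.34%, 11.4% and 13.6%, each above its OM signal by less than 2-fold. The other 3, COL15A1, PRELP and CDH19, were members, at 32.3%, 16.9% and 17.1%. The part of RNA from residual bodies in the NM values was not tested.

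Other probes of the same genes gave further readings of the same RNA, although the rule was open to them as well. Of the 18 higher genes with at least 1 further RefSeq mRNA probe well above background on all arrays, 26 such probes were found, and 22 were above OM in both cultures, 8 of them by at least 2-fold in both. Of the lower genes, 21 had 31 further probes, with 26 under OM in both and 10 by at least 2-fold in both. Over all 18029 measured probes 20.9% were above OM in both cultures and 24.2% under it. The median log2 ratios of the further probes were 1.38 in MB and 0.90 in NM for higher genes, against 1.64 and 1.30 for the probes that placed those genes, and -1.32 and -0.73 for lower genes, against -1.54 and -1.22. In the medians for placing probes, a probe was repeated for each further probe of its gene. The ratios were smaller at the median on probes other than the one that placed the gene. The choice favours this, since the probe that placed a gene had to pass 2-fold in both cultures and the further probes did not.

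Some genes had a further probe on the other side of OM. TRIM23, a ubiquitin ligase with a GTPase domain, was lower on the probe that placed it, with 111 in OM, 46.4 in MB and 46.4 in NM, and higher on the other, with log2 ratios of 0.47 and 0.27. LMBRD2, a membrane protein, was higher on its probe of 151 in OM, 362 in MB and 474 in NM, while a further one gave -1.36 in MB and 0.01 in NM. MLL, a histone methyltransferase, was lower on the probe of 197 in OM, 66.8 in MB and 34.6 in NM, while a brighter probe with another accession type read 2872 a.u. in OM, 4771 a.u. in MB and 2419.6 a.u. in NM. CNIH3 gave -1.39 and -0.80 on a probe of another accession type. MMP28, SCN8A, APOL6, TEP1 and TPM1 each had a further probe with MB and NM on different sides of OM. FMN2, an actin-nucleating formin among the 15 lowest, read 276 in OM, 83.8 in MB and 64.7 in NM on its probe, and its 2 further probes were lower in NM by -0.33 and -0.15 on the log2 scale.

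**Figure D5:**
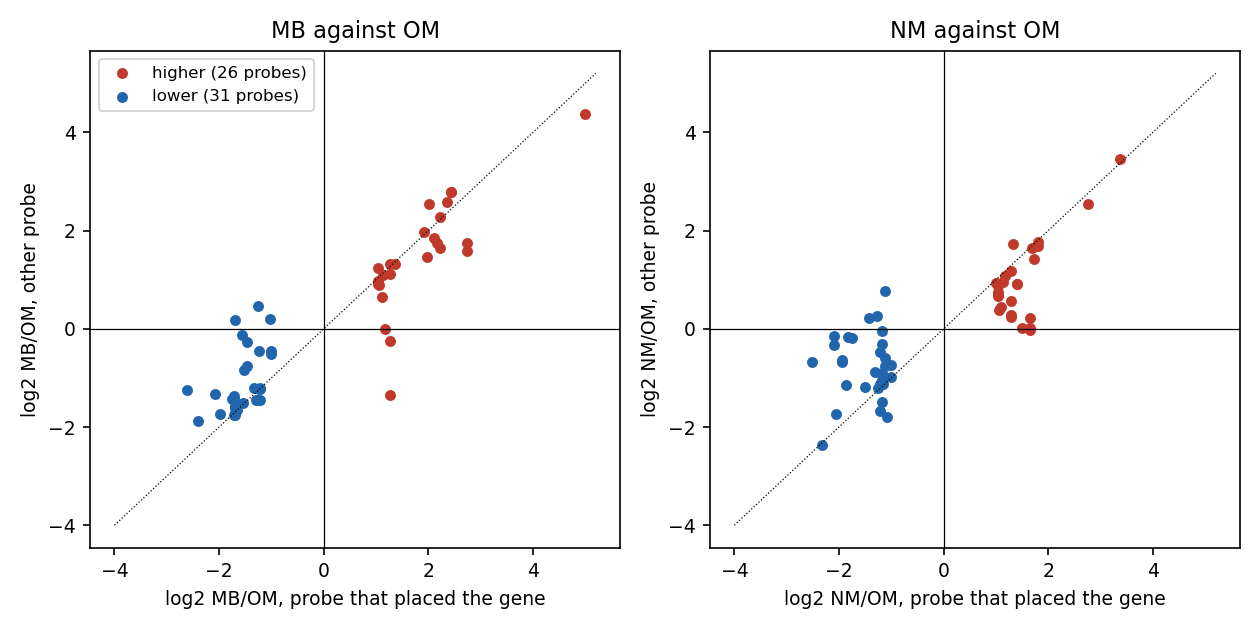
Log2 ratio to OM on a further RefSeq mRNA probe of a member gene (vertical axis) against that on the probe that placed the gene (horizontal axis), for MB on the left and NM on the right; red points are the 26 further probes of higher genes and blue points the 31 of lower genes, and the dotted line marks equal ratios. The medians on the vertical axis are 1.38 and -1.32 in the left panel and 0.90 and -0.73 in the right.

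At the threshold, the last higher genes to pass were HLF, NEUROG2 and STXBP6, with a smaller ratio of 2.04, 2.02 and 2.01. ANKRD19, HIST2H2BE and EVI2A missed it, at 1.997, 1.996 and 1.995. The last lower genes were FGF1, CD200 and FER1L3, at 2.02-fold, 2.01-fold and 2.00-fold under OM, and GLRX, NEFL and WDR4 missed it at 1.9997, 1.991 and 1.990. GLRX read 4307 a.u. in OM, 2135 a.u. in MB and 2154 a.u. in NM.

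Members lay near each other in the genome in a few places. In hg17, 12 of 80 lower genes (15%) had the probe of another lower gene within 100 kb, and 8 of these were histone genes of chromosome 6. Of all 12478 genes with a placed probe, 1.42% lay within 100 kb of a lower member. SAA1 and SAA2 on chromosome 11 and NOS1AP and SH2D1B on chromosome 1 made up the others. NOS1AP, an adaptor of neuronal nitric oxide synthase, read 117 in OM, 34.4 in MB and 40.2 in NM. Of the higher genes 2 of 65 had such a neighbour, IGF2 and IGF2AS, and 0.673% of all placed genes lay near a higher member. A single higher gene, NLGN4Y, lies on chromosome Y and is counted without its values.

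Genes with a signal well above background on only some arrays have bounds and not ratios, and would add 15 higher and 67 lower genes among 13766 genes above background on at least 1 array. The dim side was set to the lowest signal well above background on its array, or to its own signal where higher. Among the highest bounds were those of MAL2, GRM2, LOC124220 and PROS1. MAL2, a protein of apical transport, was at least 9.42-fold higher in MB and at least 8.08-fold higher in NM than the bound in OM. The 5 lowest were MSR1, CRISPLD2, PHYHD1, APOC3 and PRSS3. MSR1, a scavenger receptor of macrophages, read 45009 a.u. in OM and was not well above background in MB or NM, at least 2588-fold and at least 1428-fold lower. Its 2 other probes were not well above background on any of the 3 arrays, OM included, so that signal stood on 1 spot of 1 array.

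Scaling moved the boundary. All 145 genes kept their side of OM in both cultures under each of 6 other scalings. The rule asked for 2-fold and these scalings moved the arrays by less, so no side could change and this lends no support. The genes that stayed past 2-fold in all 6 were 50 of the higher and 51 of the lower ones. The split between directions was 65 higher to 80 lower here, and became 90 to 57 on the mean of GAPDH, ACTB and HSP90AA1 (the study names HSP90 without saying which gene), 89 to 58 on the median and 89 to 65 after quantile normalization, but 55 to 96 on the spike-in probes. Of the 9 histone members HIST1H2BB, HIST1H2BH, HIST1H2BO, HIST1H4K and HIST1H2AL stayed past 2-fold in all 6.

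Across 30 gene lists, 26 of the 145 genes stood in at least 1, of which 16 were higher and 10 lower. With 0.521% of all measured genes higher and 0.641% lower, a list of this size is often empty by those shares alone. Lists without a member in either direction included 35 measured genes of p53 targets, CDK inhibitors and senescence, 46 of cell cycle and DNA replication, 40 of sterol and fatty acid synthesis, 43 of the amino acid and unfolded protein response, 40 chromatin and DNA methylation regulators, 45 homeobox genes and 38 axon guidance genes. The sterol list had a median log2 ratio of 0.85 in MB and 0.11 in NM, and the amino acid and unfolded protein response list -1.41 in MB and 0.64 in NM, so that neither list had moved the same way in both cultures by its median to the extent the rule required of a gene.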

How the data were processed

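Total RNA of OM, MB and NM was labelled with Cy3 and hybridised to 1 array each, 3 on 1 slide. The intensity values the authors deposited are the background-subtracted spot signals of Agilent Feature Extraction (9.5 per the labels, 9.5.3.1 per the file headers), linear and not scaled between arrays. Low ones are surrogates, so that ratios of dim probes are compressed or uncertain. The authors' series value table held the same intensity values, within 0.1% for all 43376 spots of each array.

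Control and outlying spots were left out, spots of a probe averaged, arrays divided by their 75th percentile, and probes kept that were well above background on all 3 arrays (Python 3.11.15, pandas 2.3.3, numpy 2.4.6; R 4.3.3 with limma 3.58.1 for the normexp alternative). The steps were tested on simulated data. With 1 array a population, precision across cultures is unknown.

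The members and gene lists were chosen with earlier results of these data known. Named genes are the 15 with the largest smaller ratio in each direction, members of 30 gene lists, those in 10 spots, at the threshold, with opposing probes, with extreme NM, with the 5 largest bounds or with a neighbour within 100 kb. One gene that this rule names is not reported here. Others were named after their values were seen, for their role. Names were matched to GRCh38.p14 for 136 of 145 by accession, 4 by symbol and 3 by synonym. The alternatives concerned scaling, background, spots, filters, fold, accession and probe choice.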

Additional observations from a re-analysis of the deposited data

How the results depend on the processing

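No paired analysis was possible because each population has 1 array, and no replicate could be left out. Limits are the single culture and array of each population, the OM array shared by both ratios, and the dim probes of many members. The count of 65 higher and 80 lower genes became 36 and 43 with normexp background correction, 40 and 44 without background subtraction and 41 and 42 with a signal over 100 a.u. on all 3 arrays, which leaves fewer genes to test. It became 245 and 289 at 1.5-fold, 19 and 16 at 3-fold and 2 and 1 at 5-fold. Lower genes numbered 147 with a probe above background on at least 1 array, where bounds enter, and 153 with any accession. By construction both background settings draw the ratios of dim probes toward 1. As run here, normexp adds a constant to every spot, and the other setting leaves the background in the signal. The causes of the changes under these settings were not tested beyond this construction. The other alternatives left both counts within 1.5 times.

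The median log2 ratio of NM to MB among higher genes, -0.13, was -0.061 after quantile normalization, -0.042 without scaling, -0.24 with normexp, -0.037 without spots of outlying local background, -0.23 with over 100 a.u. on the brightest array or on all 3 arrays, -0.040 at 1.5-fold, -0.23 at 3-fold and -0.22 without provisional names. Among lower genes it was 0.04, and turned to -0.040 without scaling. It was 0.10 after quantile normalization, 0.13 on the median, 0.32 with a probe above background on at least 1 array, 0.18 at 3-fold and 0.14 at 5-fold. The share of genes with NM between OM and MB, 31.0%, was 41.4% with a probe above background on at least 1 array.

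Of the 145 genes, 26 were lost when every measured probe of a gene had to pass, 14 when the brightest probe decided, and 34 higher and 34 lower genes stayed past 2-fold in all 6 scalings and both background settings. The scalings moved the median of all measured genes from -0.05 to 0.14 in MB on the mean of the 3 housekeeping genes and from 0.04 to 0.20 in NM on the median. Of the 30 genes with the largest ratios, none changed direction under the 20 alternatives that gave them a value. These genes were picked for large ratios, and most alternatives left their values nearly unchanged, so this lends no support. Read at 1 probe per setting, FMN2 (brightest probe, -0.15) and TRIM29 (normexp, -0.99) fell short of 2-fold under 1 each. That reading did not apply the rule that every measured probe must pass. FMN2, NAPSA and MLL each had a further RefSeq mRNA probe that missed 2-fold.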
